A study of Homo sapiens with 2 samples.

Results

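The tumor necrosis factor (TNF) superfamily of ligands and receptors was examined in HSC-3, a cell line derived from a human squamous cell carcinoma of the tongue. Members were taken by gene symbol, as every gene named TNFRSF or TNFSF with a number, together with TNF, LTA, LTB, LTBR, FAS, FASLG, CD27, CD40, CD40LG, CD70, NGFR, EDA and EDAR. Symbols holding a hyphen, which name antisense and readthrough genes, were dropped, and there were 3 of these. This left 45 genes of the 60616 listed, of which 27 encode receptors and 18 encode ligands. There was 1 library of cells that received 1 µM FIN56 for 48 h, and 1 library of cells that received 0.1% DMSO, the vehicle, for which the labels give no time. FIN56 is a small molecule inducer of ferroptosis, the iron-dependent cell death driven by lipid peroxidation. All cells came from the same line, grown in DMEM medium with serum. With 1 library per condition no difference has a replicate check, no test between the conditions could be made, and any difference between the cultures other than the drug cannot be told apart from it.

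Ligands of this superfamily are mostly membrane proteins that work as trimers and bring their receptors together on the target cell. Receptors with a death domain, such as FAS and the receptors for TRAIL, can recruit the adaptor FADD and caspase-8 and so start apoptosis, or recruit TRADD and RIPK1. Receptors without a death domain bind TRAF adaptors and feed the NF-κB and stress kinase pathways. Decoy receptors bind a ligand without passing on a death signal. Epithelial cells are known for carrying several of the receptors, whereas many of the ligands are made mainly by lymphocytes and myeloid cells.

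The expected counts, which are estimates of reads per gene and need not be whole, came to a total of 70184517 with DMSO and 73062209 with FIN56. Levels are given as FPKM, which is scaled for library size and gene length, and so can be compared between genes. All 8 squamous epithelial markers were present, between 9.42 FPKM (DSG3) and 2078 FPKM (KRT5) with DMSO and between 10.6 FPKM (DSG3) and 1647 FPKM (KRT5) with FIN56. Lymphocyte markers were near 0. The summed FPKM of 8 T and NK cell markers was 0.19 with DMSO and 0.38 with FIN56, and 6 of them were listed at 0 in both libraries, CD3E and CD8A among them. The summed FPKM of 6 B cell markers was 0.13 and 0.1, with MS4A1 listed at 0 in both libraries. Of 6 myeloid markers, CD14 stood at 3.62 and 5.15 FPKM, while LYZ had 1 expected count with DMSO and none with FIN56. The summed FPKM was 0.08 in both libraries for 4 endothelial markers, and 5.1 and 2.92 for 5 fibroblast markers, most of it from COL1A1.

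Receptors were far more abundant than ligands in HSC-3 cells. The 27 receptors had a summed FPKM of 503 with DMSO and 554 with FIN56, against 42 and 33.6 for the 18 ligands. Of the receptor sum, 71.5% with DMSO and 72.8% with FIN56 came from TNFRSF12A, TNFRSF1A and LTBR. TNFRSF12A, which encodes Fn14, the receptor for TWEAK, was the highest of the family, with an FPKM of 202 with DMSO and 216 with FIN56. TNF and TNFSF10 together with 1 more gene (TNFSF13 with DMSO, TNFSF15 with FIN56) held 81.7% and 78.4% of the ligand sum. TNF, the founding cytokine of the family, was the highest ligand in both libraries, with an FPKM of 16.2 with DMSO and 13.6 with FIN56.

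**Figure D1:**
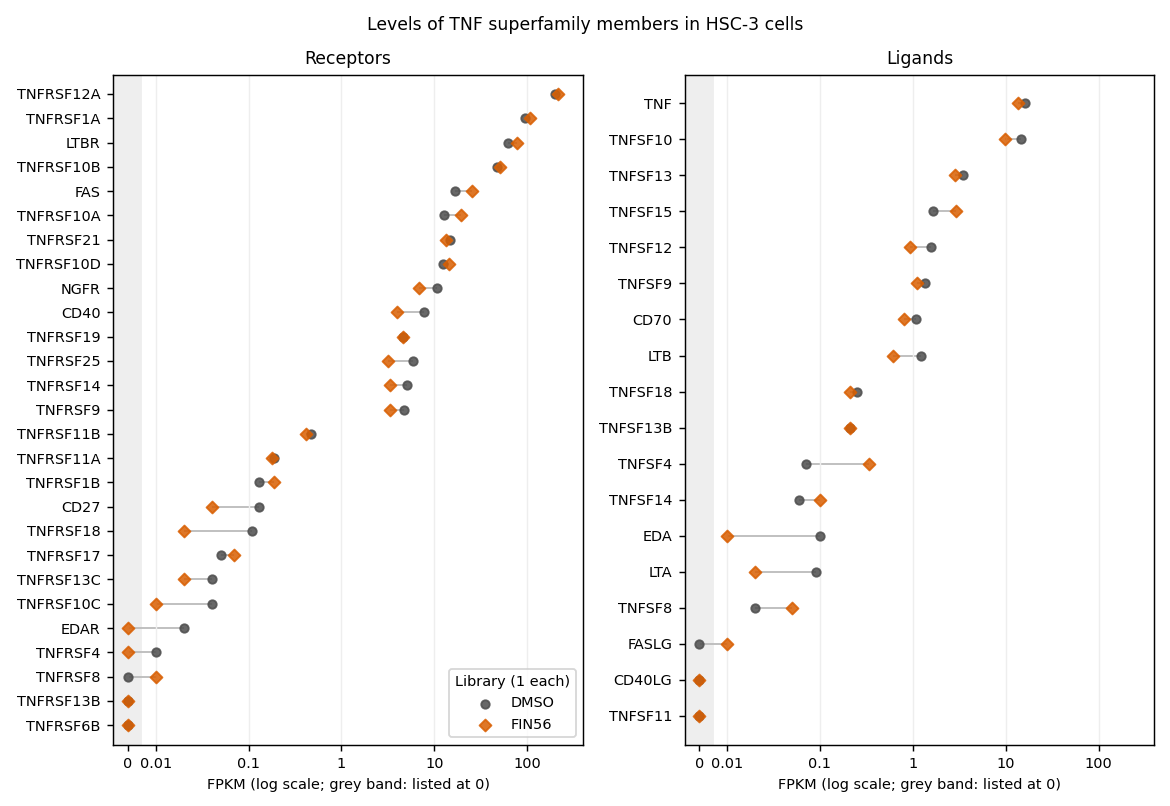
FPKM on a log axis of the 27 receptors and 18 ligands in the DMSO library (circles) and the FIN56 library (diamonds), 1 library each, ordered by mean FPKM. The grey band holds genes listed at 0. TNFRSF12A is highest among receptors, at 202 and 216 FPKM, and TNF among ligands, at 16.2 and 13.6 FPKM.

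For a ratio between the libraries, a gene needed an FPKM above 0 in both libraries and at least 20 expected counts over both together. This left 18152 genes, among them 17 of the 27 receptors and 12 of the 18 ligands. The ratio is the FPKM with FIN56 over that with DMSO, and it was called higher at 1.5 or more, which is the fold the study used for higher genes, and lower at 1/1.5 or less, the same fold taken downward here. Beside it stands the ratio of expected counts scaled by library totals, with an exact 95% Clopper-Pearson interval that covers counting error only. Reads carry no molecular identifiers, and these intervals do not cover the spread between cultures. In bulk RNA, fewer cells making a transcript and less of it per cell cannot be told apart.

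By FPKM ratio, 2 of the 17 receptors were higher (FAS and TNFRSF10A) and 4 were lower (CD40, TNFRSF25, NGFR and TNFRSF14). Among the 12 ligands, 3 were higher (TNFSF4, TNFSF15 and TNFSF14) and 2 were lower (LTB and TNFSF12). Over all 18152 genes, 9.1% were higher and 12.4% lower by the same rule, 21.5% in either direction, and of the 29 members compared 11 passed it in either direction. With the counting interval described above also on the same side of 1, there were 2 receptors and 2 ligands higher (6.26% of all genes) and 4 receptors and 2 ligands lower (9.07% of all genes). The counting interval lay above 1 for 7 receptors and below 1 for 6, and for 4 it included 1. For ligands it lay above 1 for 2 and below 1 for 5, and for 5 it included 1. Over all genes 30.9% of intervals lay above 1 and 30.5% below. The median log2 FPKM ratio was 0.022 for receptors and -0.26 for ligands, beside 0.013 over all genes. By expected counts the medians were 0.12 for receptors and -0.27 for ligands, beside -0.0012 over all genes. These counts describe 1 pair of libraries, and members are not replicates.

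**Figure D2:**
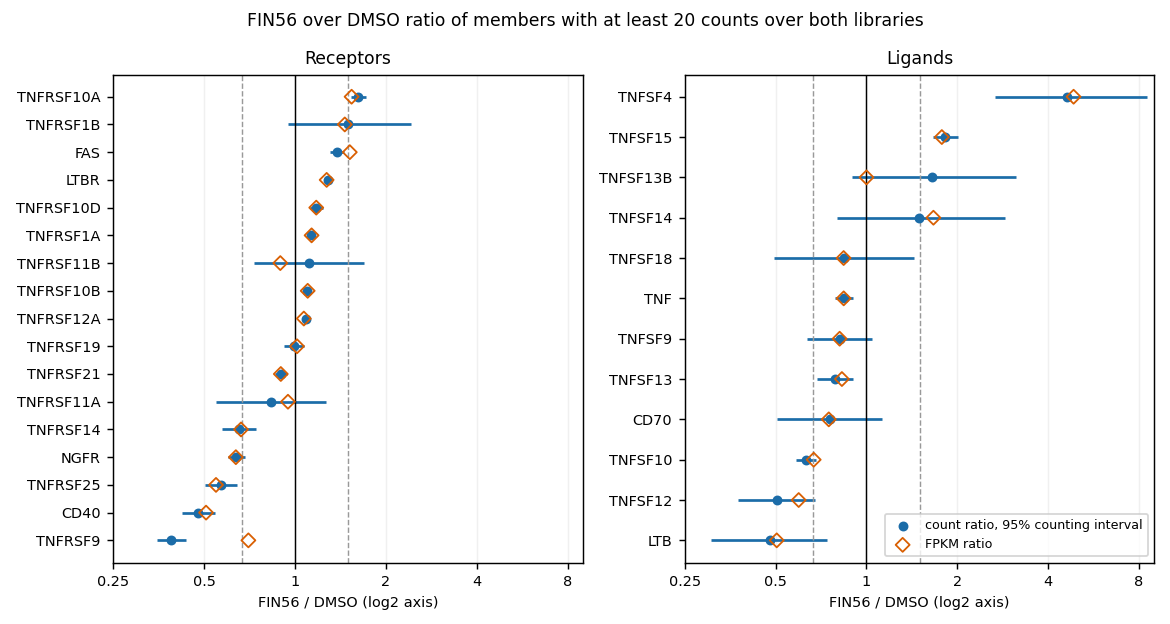
Ratio of the FIN56 to the DMSO library on a log2 axis for the 17 receptors and 12 ligands with at least 20 expected counts over both libraries. Filled circles are count ratios with their 95% counting intervals, open diamonds are FPKM ratios, and dashed lines mark 1.5 and 1/1.5. TNFRSF10A and TNFSF4 lie highest in their panels by count ratio, at 1.62 and 4.62, and TNFRSF9 and LTB lowest, at 0.389 and 0.48.

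The receptors were also grouped by level, using the mean FPKM of both libraries, a grouping that was not among the planned results. Of the 8 receptors with a mean FPKM over 10, 7 had a counting interval above 1 and 1 had an interval below 1, where 44.5% and 38% of the 7279 genes at this level did. Of the 6 receptors with a mean FPKM from 1 to 10, none had an interval above 1 and 5 had an interval below 1, where 29.7% and 33.8% of 5739 genes did. The mean depends on the FIN56 value too, and NGFR, at 10.8 FPKM with DMSO, lies under 10 by the mean because it was lower with FIN56. Grouped by the DMSO level alone, a split chosen after seeing the data, 7 of 9 receptors over 10 FPKM had an interval above 1 and 2 below, where 42.4% and 40.2% of 7251 genes did. Of the 5 receptors from 1 to 10 FPKM with DMSO, 0 had an interval above 1 and 4 below, where 29.9% and 33.2% of 5771 genes did. The last 3 receptors that could be compared had a mean FPKM under 1, and their intervals included 1. By counting interval the higher receptors were TNFRSF12A, TNFRSF1A, LTBR, TNFRSF10B, FAS, TNFRSF10A and TNFRSF10D, and the lower ones TNFRSF21, NGFR, CD40, TNFRSF25, TNFRSF14 and TNFRSF9. Most of the former differed by little. TNFRSF12A had 12594 expected counts with DMSO and 14232 with FIN56, an FPKM ratio of 1.07 and a count ratio of 1.09 (1.06 to 1.11). TNFRSF1A, the main receptor for soluble TNF, had 10461 and 12268 expected counts and an FPKM of 95.7 and 108.6, with ratios of 1.13 by FPKM and 1.13 (1.10 to 1.16) by counts.

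Of the 8 death domain receptors, 7 could be compared, and the intervals of all 7 excluded 1, 4 of them above and 3 below. Over all genes 30.9% of intervals lay above 1 and 30.5% below. At a mean FPKM over 10, where most of these receptors stood, the shares were 44.5% and 38%. TNFRSF10A, which encodes the TRAIL receptor DR4, had 1856 expected counts with DMSO and 3128 with FIN56. Its FPKM was 12.7 and 19.5, a ratio of 1.54, and its count ratio was 1.62 (1.53 to 1.72). The other death receptor for TRAIL, TNFRSF10B, which encodes DR5, was the more abundant of the pair, with an FPKM of 46.9 and 51.6. It had 10804 and 12296 expected counts, and its count ratio was 1.09 (1.07 to 1.12), below the interval of DR4, and the FPKM values of DR4 and DR5 were closer to each other with FIN56. FAS, the receptor for Fas ligand, had 2316 and 3329 expected counts. Its FPKM of 16.9 and 25.7 gave a ratio of 1.52, just inside the threshold, whereas its count ratio was 1.38 (1.31 to 1.46). The expected counts of FAS, TNFRSF10A, LTBR, NGFR, TNFRSF14 and TNFRSF25 were not whole numbers, so part of their reads was divided with other genes. In GENCODE 44, TNFRSF10A overlaps TNFRSF10A-DT (431 and 487 expected counts) and TNFRSF10A-AS1 (118 and 120), both on the opposite strand. FAS overlaps STAMBPL1 on its own strand and ACTA2 on the opposite strand. The counts of STAMBPL1, 2360 and 2944, were whole numbers, and those of ACTA2, 531 and 558 when rounded, were not. Which genes shared reads with FAS or TNFRSF10A was not tested.

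On the other side stood NGFR and TNFRSF25. NGFR, the p75 neurotrophin receptor and a marker of basal keratinocytes, had 2495 expected counts with DMSO and 1661 with FIN56, and an FPKM of 10.8 and 6.9 (ratio 0.637, count ratio 0.64 with an interval of 0.601 to 0.681). TNFRSF25, which encodes DR3, the receptor for TL1A, had 724 and 429 expected counts and an FPKM of 5.85 and 3.2 (ratio 0.547, count ratio 0.569 with an interval of 0.504 to 0.642). TNFRSF21, which encodes DR6, was close to level, with an FPKM of 14.8 and 13.2 and a count ratio of 0.897 (0.856 to 0.94). EDAR, the ectodysplasin receptor of skin appendages, had 5 expected counts with DMSO and 1 with FIN56 and could not be compared.

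Among the 4 decoy receptors, TNFRSF10D, a TRAIL receptor with a truncated death domain, had an FPKM of 12.3 and 14.5 and a count ratio of 1.18 (1.12 to 1.23). TNFRSF11B, which encodes the soluble decoy osteoprotegerin, had 45 and 52 expected counts, an FPKM ratio of 0.894 and a count ratio of 1.11 (0.73 to 1.69), and its direction depended on the measure. TNFRSF10C had 2 counts with DMSO and 1 with FIN56. TNFRSF6B, the decoy for Fas ligand, was listed at 0 in both libraries, but the readthrough gene RTEL1-TNFRSF6B, which covers it on the same strand, had 375 and 318 expected counts. The 0 for TNFRSF6B is therefore uncertain.

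Of the 15 receptors that signal through TRAF adaptors, 8 could be compared. CD40, which T cells engage through CD40 ligand, had 752 expected counts with DMSO and 374 with FIN56, and its FPKM was 7.83 and 3.97. The FPKM ratio was 0.507 and the count ratio 0.478 (0.421 to 0.542), the lowest FPKM ratio among receptors that could be compared. TNFRSF14, which encodes HVEM, the receptor for LIGHT, had 571 and 388 expected counts. Its FPKM of 5.06 and 3.35 gave a ratio of 0.662, just past 1/1.5, and its count ratio was 0.653 (0.572 to 0.744). LTBR, the lymphotoxin β receptor, was higher without reaching 1.5, with 7125 and 9570 expected counts, an FPKM of 61.7 and 78.5, and a count ratio of 1.29 (1.25 to 1.33). TNFRSF19, which encodes TROY, had an FPKM of 4.59 and 4.66 and a count ratio of 0.991 (0.917 to 1.07). TNFRSF11A, which encodes RANK, and TNFRSF1B, the second TNF receptor, stayed under 0.2 FPKM in both libraries with intervals that included 1, and TNFRSF1B at 1.46 lay just under the fold.

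TNFRSF9, which encodes the T cell costimulator 4-1BB, gave a different answer by each measure. Its expected counts were 1118 with DMSO and 453 with FIN56, a count ratio of 0.389 (0.348 to 0.435), the lowest among the 29 members compared. Its FPKM was 4.74 and 3.32, a ratio of 0.70 that was not called. The measures differ by the effective length, the average length RSEM assigns to a gene from its mix of transcripts in each library. Worked back from count and FPKM, this length was 3361 bases with DMSO and 1868 bases with FIN56, a ratio of 0.556. GENCODE 44 lists 4 transcripts of TNFRSF9, from 445 to 5872 bases. Among the 19 members with an FPKM of 1 or more in both libraries, the other 18 had a length ratio between 0.909 (FAS) and 1.05 (TNFRSF10A). Of 12607 genes at that level, 1.62% had a length ratio of 0.8 or less. The counts of TNFRSF9 were whole numbers in both libraries. Which transcripts were present was not tested, since the files give values per gene only.

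**Figure D3:**
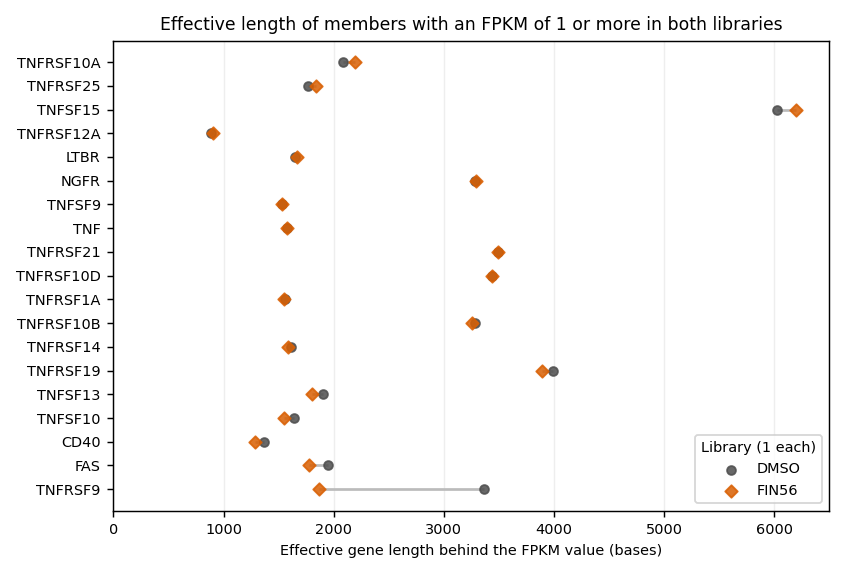
Effective gene length in bases, worked back from expected count and FPKM, for the 19 members with an FPKM of 1 or more in both libraries (circles DMSO, diamonds FIN56). TNFRSF9 goes from 3361 to 1868 bases, while the other 18 members have length ratios between 0.909 (FAS) and 1.05 (TNFRSF10A).

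The remaining 7 receptors of this group were at or near 0. CD27 had 10 expected counts with DMSO and 3 with FIN56, TNFRSF18 6 and 1, TNFRSF13C 10 and 6, and TNFRSF17 2 and 4. TNFRSF4 had 1 count with DMSO, TNFRSF8 had 1 with FIN56, and TNFRSF13B had none. These are receptors known from T and B cells. A count of 0 allows up to 0.0427 CPM with DMSO and 0.0411 CPM with FIN56 (3 counts, scaled by the library total).

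Among the ligands, TNFSF15 and TNFSF4 were higher by both measures. TNFSF15, which encodes TL1A, had 702 expected counts with DMSO and 1335 with FIN56. Its FPKM was 1.66 and 2.95, a ratio of 1.78, and its count ratio was 1.83 (1.67 to 2). TNFSF4, which encodes OX40 ligand, went from 16 to 77 expected counts, the largest ratio in the family among members compared. Its level stayed low, with an FPKM of 0.07 and 0.34 (ratio 4.86, count ratio 4.62 with an interval of 2.67 to 8.49). TNFSF14, which encodes LIGHT, passed the fold at 1.67 on 18 and 28 expected counts, and its interval of 0.798 to 2.87 included 1. TNFSF13B, which encodes BAFF, had an FPKM of 0.21 in both libraries and a count ratio of 1.65 (0.897 to 3.14).

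By counting interval the lower ligands included the most abundant ones, TNF and TNFSF10, neither of which passed the fold. TNF had 1799 expected counts with DMSO and 1574 with FIN56, a count ratio of 0.84 (0.785 to 0.9), and its FPKM ratio was also 0.84. TNFSF10, which encodes TRAIL, had 1682 and 1107 expected counts and an FPKM of 14.6 and 9.78. Its FPKM ratio of 0.668 fell just short of 1/1.5, and its count ratio was 0.632 (0.586 to 0.682). TNFSF12, which encodes TWEAK, had 139 and 73 counts and an FPKM of 1.56 and 0.93, with an FPKM ratio of 0.596 and a count ratio of 0.504 (0.375 to 0.674). LTB, the membrane anchor of lymphotoxin, had 66 and 33 counts and an FPKM of 1.21 and 0.61, with an FPKM ratio of 0.504 and a count ratio of 0.48 (0.306 to 0.74). TNFSF13, which encodes APRIL, had 461 and 377 counts, an FPKM of 3.45 and 2.86 and a count ratio of 0.786 (0.684 to 0.902). For TNFSF9, CD70 and TNFSF18 the count ratio was between 0.756 and 0.844 and the interval included 1.

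Of the 6 ligands that could not be compared, CD40LG and TNFSF11 had no count in either library and FASLG had 1 with FIN56. EDA had 15 counts with DMSO and 3 with FIN56, LTA 9 and 2, and TNFSF8 3 and 6. The receptors FAS and CD40 were thus measured in cells whose ligands for them were at or next to 0.

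Several of these genes are textbook targets of NF-κB, the pathway that many of the receptors feed, so the promoters were searched for its consensus. RefSeq promoter sequences (GRCh38.p14) matched 28 of the 45 members, and the 250 bases before each transcript start were read on both strands. The NF-κB consensus of 10 bases occurred in 9 of the 28 members (32.1%), beside 11.8% of 27305 genes. The AP-1 motif TGANTCA occurred in 5 (17.9%), beside 8.06%. Matches that overlapped each other were counted as 1. The NF-κB matches are given in 30 bases each, 5′ to 3′ on the strand of the gene, with the match in capitals, because members with a match are found on both sides of the comparison:
FAS, chr10:88991264-88991293, plus strand: ggtcgctggaGGGGGACCCCggttggagag
LTA, chr6:31572175-31572204, plus strand: tctaagccctGGGGGCTTCCCcgggcccca
LTB, chr6:31582492-31582521, minus strand: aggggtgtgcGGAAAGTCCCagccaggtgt
TNFRSF14, chr1:2556276-2556305, plus strand: atggactttGGGGGGCTCCCCcttctacag
TNFRSF19, chr13:23579179-23579208, plus strand: gccgcggagtGGGGGCCTCCaaagaaccca
TNFRSF9, chr1:7940894-7940923, minus strand: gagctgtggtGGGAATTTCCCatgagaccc
TNFSF11, chr13:42573966-42573995, plus strand: cctcctccttGGAGGGCCCCcatgaaggag
TNFSF13, chr17:7558131-7558160, plus strand: tcctcctgcgGGGAAATCCCttcctggctg
TNFSF14, chr19:6670333-6670362, minus strand: agggaaagctGGGGGCTCCCCactgcactt

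Of these 9 genes, FAS was higher, LTB, TNFRSF14, TNFRSF9 and TNFSF13 were lower by count interval, TNFRSF19 and TNFSF14 had intervals that included 1, and LTA and TNFSF11 could not be compared. Among all 29 members compared, 9 intervals lay above 1 and 11 below, and over all genes 30.9% and 30.5% did. Whether members with a match differ from those without was not tested. The AP-1 motif was found before TNFSF15, the more abundant of the ligands that were higher, and also before CD27, FAS, TNFRSF9 and TNFSF14. The motif is shown in capitals for TNFSF15 and TNFRSF9, the members with the highest and the lowest count ratio among those of the 5 that could be compared:
TNFSF15, chr9:114792633-114792662, minus strand: gactctttcttcTGAGTCAccctgtccttg
TNFRSF9, chr1:7940866-7940895, minus strand: cccgcccctggcTGAGTCAccgcactcctg

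A match describes the letters of these windows and is no evidence that a factor binds there. No match says only that the letters are not in the window.

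In all, 32 known ligand and receptor pairs were set side by side, of which 12 had both sides compared. In 7 of the 12 the counting intervals lay on opposite sides of 1, and in 0 on the same side. Single intervals lay above 1 for 30.9% of all genes and below 1 for 30.5%. At a mean FPKM over 10 these shares were 44.5% and 38%. The share of opposite intervals among other pairs of genes was not worked out. The 7 pairs rest on 5 ligands, and among these 7 only in TNFSF15 with TNFRSF25 did both sides pass the fold. Outside the 7, TNFSF14 passed it upward and TNFRSF14 downward, but the interval of TNFSF14 included 1. By counting interval TNFSF10 was lower while its receptors TNFRSF10A, TNFRSF10B and TNFRSF10D were higher. In the same way TNF was lower and TNFRSF1A higher, TNFSF12 was lower and TNFRSF12A higher, and LTB was lower and LTBR higher. TNFSF15 and TNFRSF25 went the other way, with the ligand higher and the receptor lower. The FPKM of TNFRSF10A over that of TNFSF10 went from 0.867 with DMSO to 2.0 with FIN56. The FPKM of TNFRSF25 over that of TNFSF15 went from 3.52 to 1.08. The receptor had the higher FPKM in 8 of the 12 pairs with DMSO and in 10 with FIN56.

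**Figure D4:**
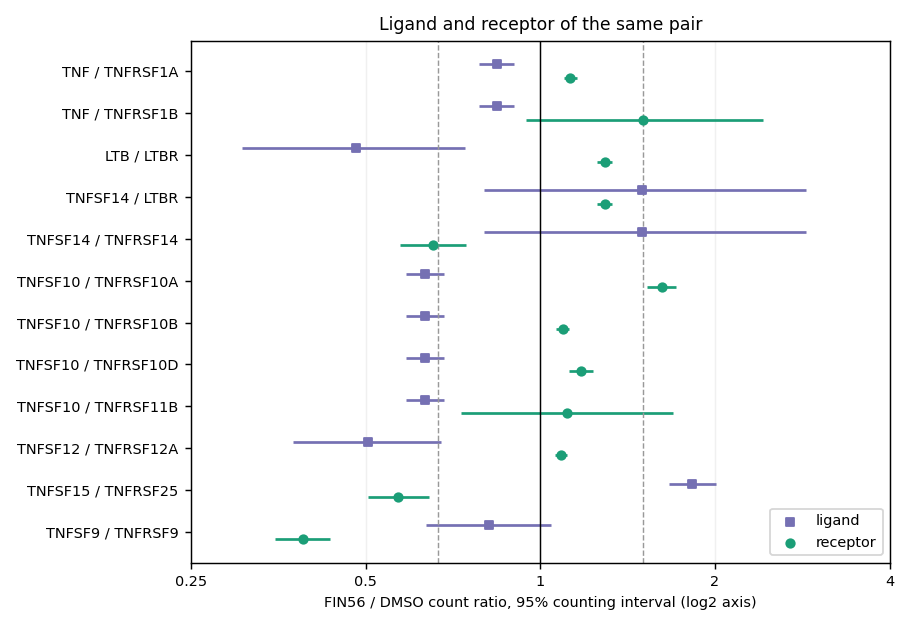
Count ratio of the FIN56 to the DMSO library, with 95% counting intervals on a log2 axis, for ligand (squares) and receptor (circles) of the 12 pairs with both sides compared. Dashed lines mark 1.5 and 1/1.5. In 7 pairs the intervals lie on opposite sides of 1, and among these 7 only TNFSF15 with TNFRSF25 has the ligand as the higher side.

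Many members lie close to each other in the genome (GRCh38, GENCODE 44). With gaps of at most 1 Mb, 24 of the 45 genes fall into 9 clusters. On chromosome 8, TNFRSF10B (23020133 to 23069031), TNFRSF10D (23135588 to 23164027) and TNFRSF10A (23190452 to 23225102) were all higher by count interval, with count ratios of 1.09, 1.18 and 1.62. On chromosome 12, TNFRSF1A (6328757 to 6342114) and LTBR (6375045 to 6391571) were both higher by count interval, though neither passed the fold. On chromosome 6, TNF (31575565 to 31578336) and LTB (31580525 to 31582522) were both lower by count interval, beside LTA with 9 and 2 counts. On chromosome 17, the adjoining TNFSF12 (7548508 to 7557890) and TNFSF13 (7558292 to 7561608) were both lower by count interval. Over all genes 30.9% of single intervals lay above 1 and 30.5% below, and 44.5% and 38% at a mean FPKM over 10. How often other neighbouring genes went the same way was not worked out. Neighbours in the family did not always do so. On chromosome 1, TNFSF4 (173183731 to 173207331) had a count ratio of 4.62 and TNFSF18 (173039202 to 173050941) 0.844 (0.494 to 1.43). TNFRSF14 (2555639 to 2565382), TNFRSF25 (6460786 to 6466175) and TNFRSF9 (7915871 to 7943165), lower by count interval, also lie on chromosome 1, but further apart.

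Of 34 genes for adaptors, caspases, ubiquitin ligases and kinases next to the TNF receptors, all 34 could be compared and 0 passed the fold in either direction. Of these genes 23 had a mean FPKM over 10, a level at which 2.39% of all genes passed upward and 4.62% downward, which leaves little to read from a count of 0. Their median log2 FPKM ratio was 0.082, beside 0.013 over all genes. Counting intervals lay above 1 for 16 genes and below 1 for 12. Among the 23 over 10 FPKM there were 13 above (56.5%) and 8 below (34.8%), beside 44.5% and 38% of all genes at that level. The nearest to 1.5 was TRAF4, a TRAF family member, with an FPKM of 65.1 and 96.4, a ratio of 1.48, and a count ratio of 1.36 (1.32 to 1.4). By TPM its ratio was 1.51.

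In the death-inducing complex, FADD, the adaptor of FAS and the TRAIL receptors, had a count ratio of 1.16 (1.13 to 1.2) and CASP8, the initiator caspase, 1.17 (1.1 to 1.24). CASP10, the other initiator caspase, stood at 1.05 (0.952 to 1.15), an interval that included 1. CFLAR, which encodes the caspase-8 inhibitor c-FLIP, also stood at 1.16 (1.09 to 1.22), and XIAP, an inhibitor of apoptosis, at 1.16 (1.12 to 1.2). RIPK3, the kinase of necroptosis, had 15 and 14 expected counts, and its partner MLKL had a count ratio of 1.04 (0.966 to 1.11).

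Genes of NF-κB signalling below TNFRSF1A went in both directions. TRADD, the adaptor of TNFRSF1A, had 910 expected counts with DMSO and 697 with FIN56, a count ratio of 0.736 (0.666 to 0.813). TNIP1, a partner of the deubiquitinase A20, had 31923 and 25697 counts, a count ratio of 0.773 (0.761 to 0.786). BIRC3, which encodes cIAP2, stood at 0.815 (0.766 to 0.868), TRAF1 at 0.792 (0.689 to 0.909) and SHARPIN, a subunit of the linear ubiquitin ligase, at 0.79 (0.743 to 0.841). RNF31, its catalytic subunit, had a count ratio of 0.885 (0.842 to 0.931) but an FPKM ratio of 1.12, so its direction depended on the measure. On the higher side were RIPK1, the kinase recruited with TRADD, at 1.06 (1.02 to 1.11), TRAF2 at 1.09 (1.04 to 1.14), MAP3K7, which encodes TAK1, at 1.08 (1.03 to 1.13), and OTULIN, a deubiquitinase of linear chains, at 1.23 (1.19 to 1.28). ADAM17, the protease that sheds TNF from the membrane, had a count ratio of 1.1 (1.06 to 1.14).

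**Figure D5:**
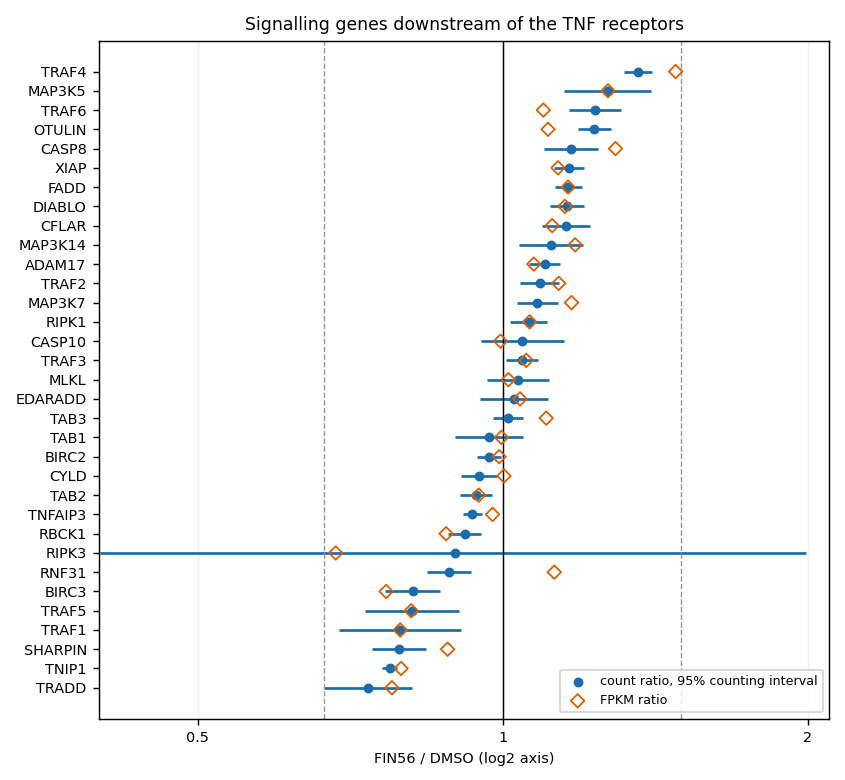
Ratio of the FIN56 to the DMSO library on a log2 axis for 33 of the 34 signalling genes, ordered by count ratio. Filled circles are count ratios with 95% counting intervals, open diamonds FPKM ratios, and dashed lines mark 1.5 and 1/1.5. All FPKM ratios lie between the dashed lines, with TRAF4 highest at 1.48.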

How the data were processed

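HSC-3 cells were sequenced as 1 DMSO and 1 FIN56 library, grouped by the treatment labels, with 8 per-sample columns matched by name. The study's methods describe tumor samples, and the submitters' processing notes name the same tools for these libraries: FastQC 0.11.7, STAR 2.6.1a, RSEM 1.3.1 and DESeq2 1.26.0, on GRCh38. The authors deposited expected counts, not normalized. Beside these the authors gave FPKM, with 2 decimals, and TPM, scaled to a common total. A last deposited pair of columns holds rlog values, a log2 measure that draws libraries together.

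FPKM ratios, and ratios of rounded expected counts with exact Clopper-Pearson intervals at 95%, were computed here for genes listed above 0 FPKM in each library and with at least 20 counts over both. A total of 70184517 and 73062209 expected counts limits precision. RSEM can divide reads between genes, and whether counting used strand is not given in the sources used here. Overlaps, positions and transcript lengths came from GENCODE 44. Alternatives used TPM, rlog, library totals, edgeR 4.0.16 TMM, DESeq2 1.42.0 size factors, other filters, pseudocounts of 0.1 and 1 FPKM and a fold of 2. Values of some genes on the lists are not reported here. Steps were tested on simulated data. Members, pairs and lists were chosen with earlier results of these data known. Any member could be named, with full values for those past the fold, the most abundant ones and those in compared pairs. Other genes named are on the signalling and marker lists, or overlap a member and were chosen after their values were seen. Python 3.11.15 and R 4.3.3 were used.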

Additional observations from a re-analysis of the deposited data

How the results depend on the processing

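No paired analysis was possible because there is 1 library per condition, so leaving out a replicate was not possible either. Values rest on 1 pair of libraries, and members under about 50 counts have wide intervals.

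The 2 receptors at an FPKM ratio of 1.5 or more became 1 with TMM scaling, 1 with a pseudocount of 1 FPKM, and 0 with rlog values, with a threshold of 2, or with whole expected counts only. The 4 receptors at 1/1.5 or less became 8 with no filter on counts, 2 with a pseudocount of 1 FPKM, 1 with whole expected counts only, and 0 with rlog values or a threshold of 2. The restriction to whole counts kept 11 receptors and left out FAS, TNFRSF10A, NGFR, TNFRSF25 and TNFRSF14. Its results follow from that exclusion and say nothing about the ratios of these genes. By library totals 2 receptors were still at 1.5 or more, but these were TNFRSF10A and TNFRSF1B, while FAS at 1.38 was not, and 5 were at 1/1.5 or less, with TNFRSF9 added. The 3 ligands at 1.5 or more became 1 with a mean FPKM of at least 1 or a threshold of 2, and 0 with rlog values or a pseudocount of 1 FPKM. The 2 ligands at 1/1.5 or less became 4 with no filter, 1 with a mean FPKM of at least 1, and 0 with rlog values, a pseudocount of 1 FPKM or a threshold of 2. Requiring the counting interval to lie on the same side of 1, which like the restriction to whole counts was chosen after seeing the data, left 2 and 4 receptors and 2 and 2 ligands.

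The median log2 ratio of receptors, 0.022, was 0.12 with library totals or TMM and 0.15 with median-of-ratios size factors, and reversed to -0.12 with no filter on counts, where 5 more receptors with few counts entered. That of ligands, -0.26, kept its sign under every alternative run, from -0.28 to -0.035. Of the 29 members compared, 26 kept their direction over FPKM, TPM, counts by 3 scalings and rlog, and TNFRSF11B, TNFRSF19 and TNFSF13B did not. The rlog values shrink differences by construction. The cause of the other shifts was not tested.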
